A study of Mus musculus with 4 samples.

Results

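Chemokines, interleukins and their receptors were followed in RNA-seq of Nf2-deficient Schwann cells of the mouse that had received NXD30001, which the series title names as an inhibitor of the chaperone HSP90. Members were taken by symbol: every gene row of both deposited tables named as a numbered Ccl, Cxcl, Ccr, Cxcr or Il gene, plus Cx3cl1. This gave 139 of 35604 rows. They were 22 CC ligands, 13 CXC ligands, Cx3cl1, 11 CC receptors, 7 CXC receptors, 39 interleukins, 6 antagonists or decoys, 39 interleukin receptor chains and the enzyme gene Il4i1. Il8ra, an older symbol for Cxcr1 in RefSeq, was counted with the CXC receptors.

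There were 4 libraries in 4 groups, 1 in each. All came from ESC-FC1801, a line of mouse embryonic Schwann cells on the FVB/N background with the genotype Nf2Flox/Flox, in which Nf2 was deleted in culture with Ad-Cre, an adenovirus carrying the recombinase. Cultured cells, kept in serum-free medium with neuregulin and forskolin, had 24 h of 1 µM NXD30001, against 24 h of DMSO. Mice carrying an ESC-FC1801 tumour had NXD30001 at 100 mg/kg 3 times a week for 4 weeks, against vehicle on the same schedule. The deletion is shared by all 4 groups, so no group holds Schwann cells with intact Nf2. The host strain, the number of animals behind a tumour library and the time between the last dose and collection are not given in these sources. The sample type field calls all 4 samples cultured cells, but the titles and treatments put 2 of them in tumours.

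Chemokines are small secreted proteins that set the direction in which leukocytes move. They bind receptors that couple to G proteins, and the names CC, CXC and CX3C describe the spacing of their first cysteines. Interleukins act through receptors built from several chains, most of which signal through JAK kinases and STAT factors, while the IL-1 and IL-17 families signal towards NF-kB. In peripheral nerve, Schwann cells release chemokines such as Ccl2 after injury and so draw in monocytes, and macrophages are a regular part of schwannomas.

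Levels are FPKM, a read level that takes the length of a transcript and the depth of a library into account, so levels of different genes can be compared within a library. A difference is log2(FPKM + 1) of the NXD30001 library minus that of its control, which understates the change of low genes. A gene counted as measured in a table if its status there was OK and it reached 1 FPKM in either library. With 1 library per group there is no replicate error and no test, so that "higher" and "lower" speak of these very libraries. The only error at hand is the one implied by the authors' deposited table, namely its log fold divided by its test statistic, here turned into log2 units. This implied error refers to the plain ratio of levels, without the added 1, and covers no biological spread. For genes between 3 and 10 FPKM its median was 0.85 in culture and 0.51 in the tumours, and between 30 and 100 FPKM it was 0.69 and 0.30. FPKM does not give the depth itself. In the tumours 56 genes had an implied error that fits a single fragment per library, and their median ratio of NXD30001 to vehicle was 0.837. The depth of the NXD30001 tumour library over that of the vehicle library was 1.19 by this measure, and 40 such genes gave 1.05 in culture.

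The labels were checked against marker genes. In culture 9 of 10 listed Schwann markers were measured, among them Sox10 at 4.40 FPKM with NXD30001 and 8.42 FPKM with DMSO, while S100b was at 0.0538 and 0.563 FPKM. The haematopoietic markers Ptprc, Cd53, Laptm5 and Coro1a were listed at 0 in both culture libraries. In the tumours these 4 summed to 211 FPKM with NXD30001 and 363 FPKM with vehicle. RNA of these 4 leukocyte markers, undetected in culture, was thus part of the tumour libraries. Of 14 listed macrophage markers only Cd68 was measured in culture, at 1.93 FPKM with NXD30001 and 2.32 FPKM with DMSO.

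Most of the family was at or near 0 in the cultured cells and better represented in the tumours. In culture 134 members had the status OK and 24 were measured, and in the tumours 137 and 61. More genes of any kind were measured in the tumours. Of all 35604 rows, 12676 were measured in culture, 15550 in the tumours and 11559 in both. Of the 139 members, 20 were measured in both tables, 41 in the tumours alone, 4 in culture alone and 74 in neither. Of the 41, 19 were listed at 0 in both culture libraries, 3 had no usable estimate there, and the highest of the others, Cxcl14, reached 0.980 FPKM with DMSO. Levels were not compared across the tables, which were made separately. At the edge of the minimum, Cxcr6 with 1.01 FPKM in NXD30001 culture cells stood inside through its DMSO level of 2.84 FPKM, and Ccl4 with 1.08 FPKM in the NXD30001 tumour and 0.861 FPKM in the vehicle tumour was just inside. Il17rb with 0.99989 FPKM in NXD30001 culture cells and 0.230 FPKM in DMSO cells, and Il12rb2 with 0.952 FPKM in the NXD30001 tumour and 0.637 FPKM in the vehicle tumour, were just outside.

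In the tumours, many more members were lower than higher in the treated library. Of the 61 measured members, 12 were at least 2-fold lower and 3 at least 2-fold higher, which is 19.7% and 4.92% of them. Among all 15550 measured tumour genes 6.93% were at least 2-fold lower and 7.32% at least 2-fold higher. The median difference was -0.28 over the measured members and -0.03 over all measured genes. Below 0 were 41 members (67.2%, against 52.7% of all measured genes), and 20 were above. The authors' deposited table called 3 members lower (4.92%, against 2.45% of all measured genes) and 1 higher (1.64%, against 3.14%). Members that pass the minimum through a single library had to differ, and the measured members were less abundant than other genes, with a median of 8.93 FPKM in their higher library against 18.9 FPKM for all genes. The counts are therefore a description.

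Chemokine ligands held most of the larger tumour differences. Of 36 ligands 20 were measured, 9 of them at least 2-fold lower and 1 at least 2-fold higher, with a median of -0.58. The summed level of all ligands with a usable estimate was 512 FPKM in the NXD30001 tumour and 714 FPKM in the vehicle tumour. Among the CC ligands, 6 of 11 measured genes were past 2-fold downward and no gene upward.

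Ccl5, known as RANTES, attracts T cells and monocytes (ENSMUSG00000035042, chromosome 11 from 83339280 to 83344020, mm9). It was at 0.884 FPKM in the NXD30001 tumour and 20.4 FPKM in the vehicle tumour. The authors' deposited table calls this difference of -3.51 (implied error 1.195). Ccl3, a macrophage inflammatory protein gene, was listed at 0 with NXD30001 and at 3.49 FPKM with vehicle, without a call. The neighbouring and related gene Ccl4 was at 1.08 FPKM in the NXD30001 tumour and 0.861 FPKM in the vehicle tumour. Its difference of 0.16 was far less than its implied error of 1.32, so its direction cannot be told.

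The monocyte chemoattractant genes lie beside each other on chromosome 11, and they divided. Ccl7 was at 6.86 FPKM with NXD30001 and 16.7 FPKM with vehicle, a difference of -1.17 (implied error 0.58.) Ccl12 was at 14.3 and 31.0 FPKM in the NXD30001 and vehicle tumours, and Ccl8 was at 25.8 and 53.3 FPKM, differences of -1.06 and -1.02. These 3 genes were about as much lower as each other, and none was called in the authors' deposited table. Ccl2, the best known ligand of Ccr2 (ENSMUSG00000035385, chromosome 11 from 81849073 to 81850955), did not share this. It was at 31.0 FPKM with NXD30001 and 30.05 FPKM with vehicle, a difference of 0.04 (implied error 0.40.) Ccl11, the eosinophil attractant eotaxin, lies between Ccl7 and Ccl12 and was at 2.61 and 1.78 FPKM in the NXD30001 and vehicle tumours. Ccl2 and Ccl12 are close relatives, as are Ccl7 and Ccl8, and the labels do not say how reads that match several of them were counted.

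The most abundant CC ligands were Ccl9 and Ccl6, rodent genes whose products act through Ccr1. Ccl9 was at 73.9 FPKM in the NXD30001 tumour and 128 FPKM in the vehicle tumour, a difference of -0.79 (implied error 0.32.) Ccl6, whose locus string recurs in another row, was at 95.6 and 117 FPKM, a difference of -0.28. Ccl25, a chemokine first found in thymus that binds Ccr9, was at 4.89 FPKM with NXD30001 and 11.2 FPKM with vehicle. Its locus is also shared, and its difference of -1.05 had an implied error of 0.54.

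CXC ligands differed in both directions. Cxcl9 and Cxcl10 are neighbours on chromosome 5 whose products bind Cxcr3 on activated lymphocytes and are induced by interferon. Cxcl10 (ENSMUSG00000034855, locus given as chromosome 5 from 92760853 to 92843654 and shared with Cxcl11 and Art3) was at 6.34 FPKM in the NXD30001 tumour and 23.4 FPKM in the vehicle tumour. The difference was -1.74 (implied error 0.67) and no call. Cxcl9 was listed at 0 with NXD30001 and at 1.62 FPKM with vehicle. Cxcl11, of the same kind, was below the minimum, listed at 0 with NXD30001 and at 0.192 FPKM with vehicle. All 3 interferon-induced ligands were thus at the lower level in the NXD30001 tumour, although Cxcl9 and Cxcl11 were close to the floor of detection and Cxcl10 shares its locus.

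The promoters of Cxcl9 and Cxcl10 are printed because these neighbours were low together. They are RefSeq sequences of build GRCm38.p6, from 250 bases before to 50 after the start of each gene, on the minus strand at chr5:92328030-92328329 and chr5:92348840-92349139. Capitals mark matches to a motif of the interferon-response type, a pair of GAAA separated by any 2 bases, or of the kappaB type, GGGANTTCC, both searched on each strand.
Cxcl9: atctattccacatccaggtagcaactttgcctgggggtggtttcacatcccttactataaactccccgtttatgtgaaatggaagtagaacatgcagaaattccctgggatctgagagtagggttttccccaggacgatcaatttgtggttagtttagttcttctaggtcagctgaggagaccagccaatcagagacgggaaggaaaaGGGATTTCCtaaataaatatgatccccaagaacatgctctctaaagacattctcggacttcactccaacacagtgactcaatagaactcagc
Cxcl10: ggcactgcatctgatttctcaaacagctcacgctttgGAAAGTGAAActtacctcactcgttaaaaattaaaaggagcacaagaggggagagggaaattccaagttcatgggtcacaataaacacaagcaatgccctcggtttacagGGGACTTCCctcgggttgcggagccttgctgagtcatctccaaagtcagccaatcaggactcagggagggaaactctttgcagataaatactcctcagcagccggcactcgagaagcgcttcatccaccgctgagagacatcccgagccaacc
Cxcl10 holds the interferon-response type at 213 bases and the kappaB type at 103 bases before its start. Cxcl9 holds the kappaB type at 42 bases before its start. The letters of the first motif occur in 3.44% of all 32851 promoters of the table and those of the second in 1.68%. Among the 120 promoters that matched 101 members by symbol, the shares were 5% and 4.17%. The motifs do not overlap in these promoters, and a match describes letters, not binding.

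The neutrophil attractants of the CXC group act through Cxcr2. Cxcl5 was at 1.91 FPKM with NXD30001 and 6.18 FPKM with vehicle, a difference of -1.30 (implied error 0.63.) Cxcl1 was at 1.31 and 1.57 FPKM in the NXD30001 and vehicle tumours, a ratio of 0.837, which is the ratio given by equal fragment numbers. Of 8 listed neutrophil markers 4 were measured and 3 of these were above 0, the other way from Cxcl5, with summed levels of 53.0 FPKM with NXD30001 and 11.2 FPKM with vehicle. S100a8 was at 21.9 FPKM with NXD30001 and 2.18 FPKM with vehicle, and Ly6g was listed at 0 in both.

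Cxcl13 was the single ligand that was at least 2-fold higher in the treated tumour. It attracts B cells through Cxcr5 (ENSMUSG00000023078, chromosome 5 from 96385945 to 96390086). It was at 10.4 FPKM with NXD30001 and listed at 0 with vehicle, a difference of 3.52 that the authors' deposited table calls. The B cell marker Ms4a1 was listed at 0 in both tumours, and Cxcr5 was at 0.0676 FPKM with NXD30001 and 0.242 FPKM with vehicle.

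Another 4 ligands had similar levels in both tumours. Cxcl12, the most abundant chemokine of the vehicle tumour, retains leukocytes and stem cells through Cxcr4. It was at 135 FPKM with NXD30001 and 149.8 FPKM with vehicle, a difference of -0.15 (implied error 0.22.) Cxcl14 was at 74.6 and 88.7 FPKM in the NXD30001 and vehicle tumours. The membrane-bound ligands Cxcl16 and Cx3cl1, which can both be shed, were close in the NXD30001 and vehicle tumours as well. Cxcl16, at a shared locus, was at 18.0 and 20.2 FPKM, and Cx3cl1 at 5.91 and 7.89 FPKM. These 4 differences lay between -0.36 and -0.15, each less than its implied error.

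**Figure D1:**
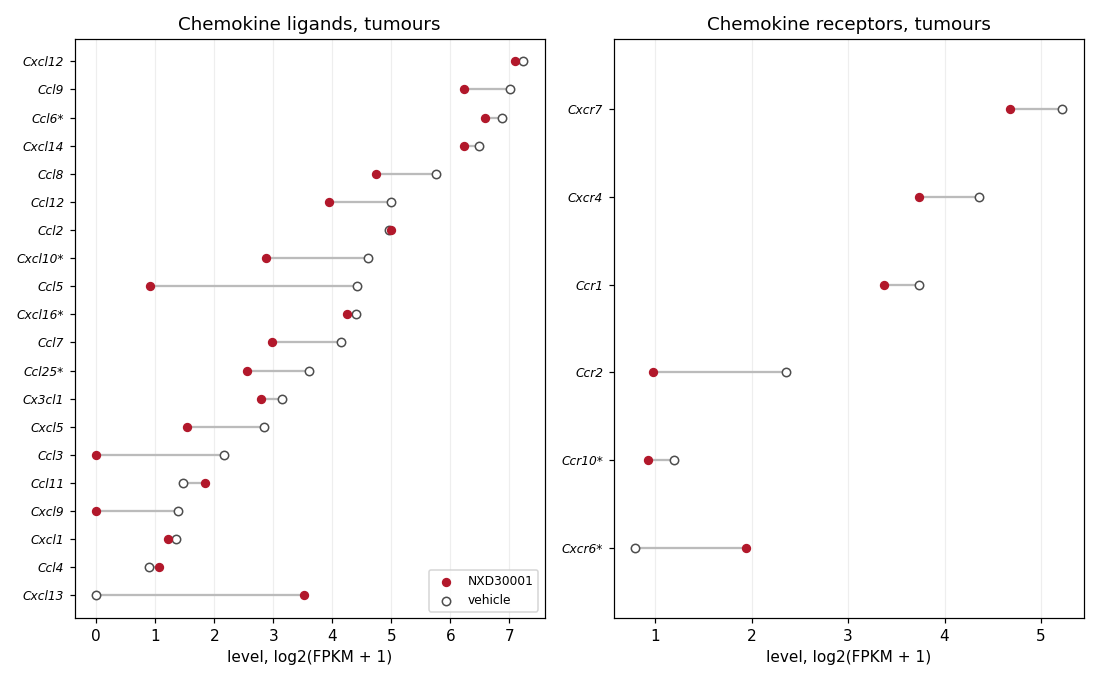
Levels of the 20 measured chemokine ligands (left) and 6 of the 7 measured receptors (right) in the tumours, as log2(FPKM + 1); filled points are the NXD30001 library, open points the vehicle library, 1 library each, and an asterisk marks a locus shared with another row. The longest lines belong to Ccl5, at 0.884 FPKM with NXD30001 and 20.4 FPKM with vehicle, and to Cxcl13, at 10.4 FPKM with NXD30001 and listed at 0 with vehicle, while the lines of Cxcl12 and Ccl2 are short.

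Of 18 chemokine receptors 7 were measured in the tumours, and 6 of them were lower in the treated library, beside 52.7% of all measured genes. Ccr2, which brings classical monocytes out of the bone marrow (ENSMUSG00000049103, chromosome 9 from 124020402 to 124023289), was at 0.971 FPKM with NXD30001 and 4.13 FPKM with vehicle. The difference was -1.38 (implied error 0.62), and the authors' deposited table calls it. Ccr1 was at 9.37 FPKM with NXD30001 and 12.4 FPKM with vehicle, a difference of -0.37 that is close to its implied error of 0.38. Cx3cr1, the receptor of Cx3cl1 and no member by the rule, was at 9.60 FPKM with NXD30001 and 11.9 FPKM with vehicle. Of Ccr2, Ccr1 and Cx3cr1, all carried by monocytes or macrophages, only Ccr2 was past 2-fold. The receptors of Cxcl12 were lower by less: Cxcr4 was at 12.3 and 19.5 FPKM, and Cxcr7, an atypical receptor that removes Cxcl12, at 24.6 and 36.2 FPKM, differences of -0.63 and -0.54. Cxcr6, the receptor of Cxcl16, was at 2.83 FPKM with NXD30001 and 0.735 FPKM with vehicle, but its locus is shared with Fyco1 and its implied error was 8.76. Ccr10, at another shared locus, was at 0.904 and 1.30 FPKM. The lymphocyte receptors Cxcr3 and Ccr7 were below the minimum. Cxcr3 was at 0.320 FPKM with NXD30001 and listed at 0 with vehicle, and Ccr7 was listed at 0 with NXD30001 and at 0.667 FPKM with vehicle.

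Interleukins themselves were sparse in the tumours. Of 39 genes 10 were measured, with a median of -0.04, and most of the classical lymphocyte and myeloid cytokines were near or at 0. Il6 was listed at 0 with NXD30001 and at 0.217 FPKM with vehicle, and Il10 was listed at 0 in both. Il1b, the main secreted IL-1, was listed at 0 with NXD30001 and at 1.02 FPKM with vehicle, at a shared locus. In contrast Il25, an IL-17 family cytokine that drives type 2 responses, was at 1.26 FPKM with NXD30001 and listed at 0 with vehicle. Both are near the floor, and neither was called.

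Il34 was by far the most abundant interleukin. It is the other ligand, beside Csf1, of the macrophage receptor Csf1r (ENSMUSG00000031750, chromosome 8 from 113265729 to 113331377, a shared locus). It was at 110.5 FPKM in the NXD30001 tumour and 83.4 FPKM in the vehicle tumour, a difference of 0.40 (implied error 0.28.) Csf1 was at 92.8 and 78.8 FPKM. The receptor Csf1r was lower, at 57.5 FPKM with NXD30001 and 89.5 FPKM with vehicle. The ligand and receptor levels thus lay on opposite sides of 0, each by less than 2-fold. Il18 was at 12.2 and 16.9 FPKM and the alarmin Il33 at 7.34 and 6.92 FPKM in the NXD30001 and vehicle tumours. Il15, which sustains NK and memory T cells, was at 2.39 and 1.49 FPKM. The other measured interleukins, Il2, Il11, Il16 and Il17d, had levels up to 5.27 FPKM and differed by -0.41 to 0.37. The loci of Il2 and Il16 are shared, so their levels are uncertain. The IL-1 antagonist gene Il1rn was at 5.57 and 5.28 FPKM, and the IL-18 binding protein gene Il18bp at 1.77 and 2.28 FPKM. Il4i1, which encodes an amino acid oxidase of myeloid cells, was at 14.9 and 18.3 FPKM, at a shared locus.

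Interleukin receptor chains formed the largest measured group, and 20 of 21 were within 2-fold. The exception was Il1rl1, also called ST2, the receptor chain for IL-33 (ENSMUSG00000026069, chromosome 1 from 40496621 to 40522241). It was at 5.26 FPKM in the NXD30001 tumour and 19.8 FPKM in the vehicle tumour. The difference of -1.73 had an implied error of 0.33, and the authors' deposited table calls it. Its neighbours Il1r1 and Il1rl2 on chromosome 1 did not follow. Il1r1, the signalling receptor for IL-1, was at 5.38 and 5.32 FPKM, and Il1rl2, the receptor for IL-36, at 4.95 and 4.57 FPKM. Il18rap, also a neighbour, was lower by less, at 3.92 and 6.47 FPKM, a difference of -0.60 (implied error 0.48). Il1rap, the accessory chain that Il1rl1 and Il1r1 need to signal, was at 34.7 FPKM with NXD30001 and 21.6 FPKM with vehicle, a difference of 0.66 (implied error 0.31.) The chains of the IL-33 receptor therefore lay on opposite sides of 0, while Il33 itself was level. Mast cells carry Il1rl1, and mast cell markers were higher where Il1rl1 was lower: 8 of 9 listed were measured, 7 of these above 0, with summed levels of 53.8 FPKM with NXD30001 and 12.5 FPKM with vehicle and Ms4a2 listed at 0 in both.

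Chains that use the common gamma chain or bind IL-4 and IL-13 were mostly below 0. Il13ra1 was at 7.10 and 14.1 FPKM in the NXD30001 and vehicle tumours, a difference of -0.90 (implied error 0.36.) Il21r was at 1.59 and 3.43 FPKM, and the common gamma chain Il2rg at 15.4 and 22.5 FPKM. Il4ra, the shared chain for IL-4 and IL-13, was at 41.2 and 50.8 FPKM. Il15ra, which presents IL-15 to neighbouring cells, was higher at 5.97 FPKM with NXD30001 and 3.47 FPKM with vehicle. Both IL-10 receptor chains were lower, Il10ra at 5.05 and 8.93 FPKM and Il10rb at 32.2 and 39.1 FPKM. Il20rb, a chain for IL-19, IL-20 and IL-24, was at 1.44 and 3.33 FPKM, with an implied error of 1.63.

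Of the 4 measured chains of the IL-6 and IL-12 receptor family, 3 were above 0, and all 4 were within 2-fold. Il6ra was at 21.8 FPKM with NXD30001 and 13.5 FPKM with vehicle, a difference of 0.65 (implied error 0.35.) The shared signalling chain Il6st, gp130, was at 53.5 and 60.0 FPKM, within its error. Il11ra2 was at 7.89 and 4.59 FPKM, but it is a near-identical copy of Il11ra1, for which neither table gives an estimate, so its level is uncertain. Il12rb1, a chain shared by the receptors for IL-12 and IL-23, was at 1.12 and 0.818 FPKM. Osmr and Lifr, chains of the same family outside the naming rule, were below 0, with differences of -0.44 and -0.32. Il3ra, the IL-3 binding chain, was at 24.3 and 16.1 FPKM. Of the IL-17 receptors, Il17rc was the most abundant receptor chain of the vehicle tumour, at 72.4 FPKM with NXD30001 and 117 FPKM with vehicle, a difference of -0.68 (implied error 0.53.) The common chain Il17ra was at 10.1 and 9.003 FPKM, and Il17rd, also known as a brake on ERK signalling, at 3.63 and 4.92 FPKM.

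**Figure D2:**
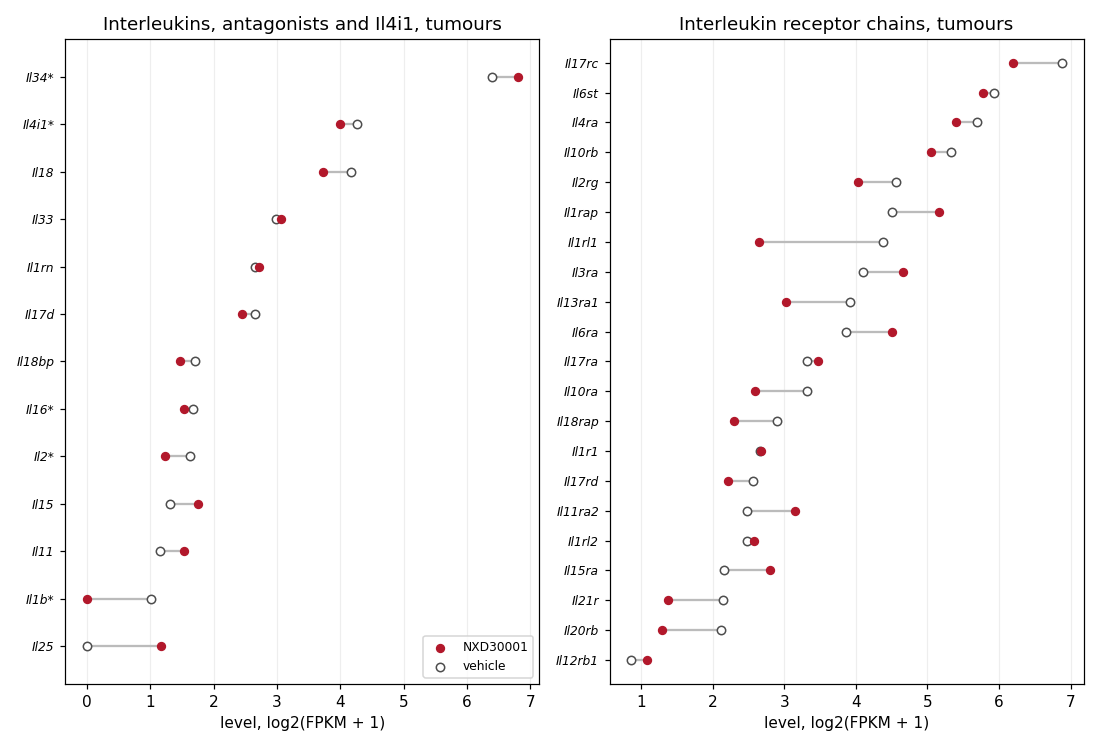
Levels in the tumours, as log2(FPKM + 1), of the 13 measured interleukins, antagonists and Il4i1 (left) and the 21 measured interleukin receptor chains (right); filled points are the NXD30001 library, open points the vehicle library, and an asterisk marks a shared locus. Il1rl1, at 5.26 FPKM with NXD30001 and 19.8 FPKM with vehicle, has the longest line among the receptor chains, and Il34, at 110.5 and 83.4 FPKM, is the highest interleukin.

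Marker genes of several cell types differed beside these members. Of all measured tumour genes, 52.7% were below 0. All 13 measured macrophage markers, of 14 listed, were below 0, with a median of -0.63 and summed levels of 1716 FPKM with NXD30001 and 2159 FPKM with vehicle. Ptprc, the pan-leukocyte CD45 gene, was at 4.53 and 17.8 FPKM in the NXD30001 and vehicle tumours, a difference of -1.77 (implied error 1.19) and no call. The other haematopoietic markers differed by less: Laptm5 by -0.97 (called, at a shared locus), Cd53 by -0.37 and Coro1a by -0.02. Endothelial markers were lower as well, 9 of 9 measured, with a median of -1.19 and sums of 39.9 FPKM with NXD30001 and 96.8 FPKM with vehicle. Of the 9 listed T cell markers only Cd247 and Cd4 were measured, and Cd3e, Cd2 and Cd8a were listed at 0 in both tumours. Of the 7 NK cell markers only Gzma was measured, listed at 0 with NXD30001 and at 1.48 FPKM with vehicle. Schwann cell markers were higher, 8 of 8 measured of 10 listed, with sums of 549 FPKM with NXD30001 and 153 FPKM with vehicle. The part of these shifts in the differences of the members was not tested. In bulk tissue, fewer cells of a type and less RNA per cell cannot be told apart.

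**Figure D3:**
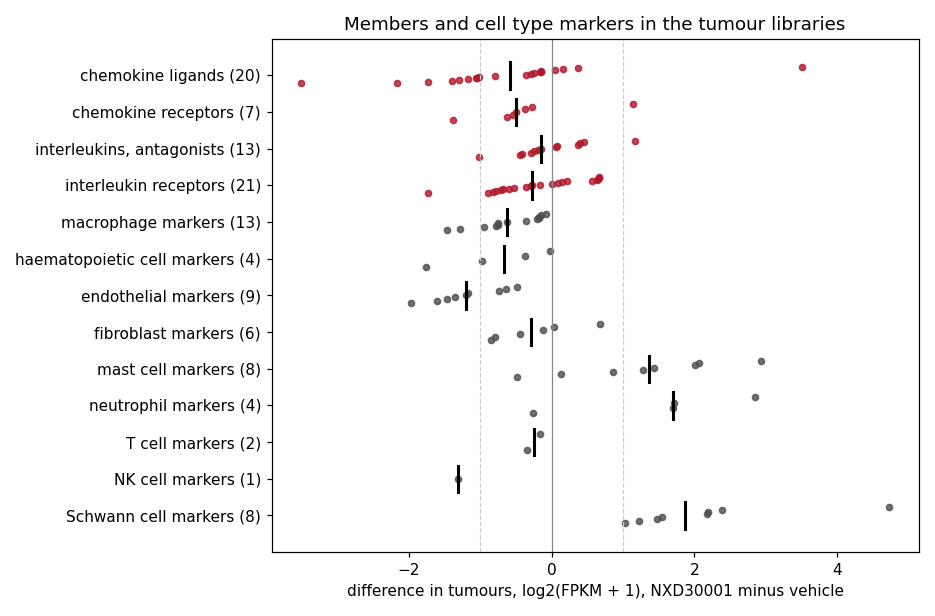
Differences in the tumours, log2(FPKM + 1) of the NXD30001 minus the vehicle library, for measured members (red, upper rows) and for cell type markers (grey), with the number of genes in brackets; each point is a gene, black bars are medians and dashed lines mark 2-fold. The medians were -0.58 for the chemokine ligands, -0.63 for macrophage, -0.67 for haematopoietic cell and -1.19 for endothelial markers. Those of mast cell, neutrophil and Schwann cell markers were 1.36, 1.71 and 1.86. Single ligands ranged from -3.51 to 3.52, and a link between the sets was not tested.

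In culture fewer members were measured. Of 24, 8 were at least 2-fold lower (33.3%, against 24.8% of all 12676 measured genes) and 3 at least 2-fold higher (12.5%, against 12.6%). The share of higher members was at the background. The median over the members was -0.70. That of all measured culture genes was -0.25, and after centring on it 6 members were at least 2-fold lower and 4 higher. The authors' deposited table called 2 members lower (8.33%, against 7.14% of all genes) and 2 higher (8.33%, against 2.75%). Here too, members that pass the minimum through a single library had to differ. The measured members had a median of 4.24 FPKM in their higher library, against 14.8 FPKM for all genes. These counts and medians are therefore a description. The haematopoietic markers Ptprc, Cd53, Laptm5 and Coro1a were listed at 0 in both of these libraries.

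Of 12 measured interleukin receptor chains in culture, 5 were at least 2-fold lower in treated cells and 2 at least 2-fold higher. Il4ra (ENSMUSG00000030748, chromosome 7 from 132695785 to 132722982) was at 0.206 FPKM with NXD30001 and 5.28 FPKM with DMSO, a difference of -2.38 (implied error 1.45.) Il2rg, its partner chain on blood cells, was at 0.236 and 1.97 FPKM. Il1r1 was at 0.190 and 1.70 FPKM in NXD30001 and DMSO cells, a difference of -1.18 (implied error 0.84.) The authors' deposited table calls Il4ra and Il1r1 but not Il2rg. Il1rl2 was at 0.468 and 2.96 FPKM, Il6ra at 0.173 and 1.70 FPKM, and the accessory chain Il1rap at 18.6 and 37.3 FPKM. These 6 chains were at the lower level with NXD30001, and apart from Il1rap they were below 6 FPKM in both libraries.

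Il31ra and Il15ra stood at the other end. Il31ra forms the receptor for IL-31 together with Osmr (ENSMUSG00000050377, chromosome 13 from 113313018 to 113370870). It was at 4.41 FPKM in NXD30001 cells and 0.0600 FPKM in DMSO cells, a difference of 2.35 (implied error 1.18) and a call in the authors' deposited table, at a locus shared with another row. Its neighbour and relative Il6st was the most abundant member in culture, at 137 FPKM with NXD30001 and 72.6 FPKM with DMSO, a difference of 0.91 (implied error 0.69) and no call. Osmr was at 1.86 and 2.70 FPKM, and the ligand gene Il31 was listed at 0 in all 4 libraries. Il15ra was at 6.17 FPKM with NXD30001 and 0.978 FPKM with DMSO, a difference of 1.86 (implied error 0.68), also called. Il15 was listed at 0 in both culture libraries.

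Il18 was the other measured member past 2-fold upward in culture. It encodes a cytokine stored as a precursor and cut by caspase-1 (ENSMUSG00000039217, chromosome 9 from 50383378 to 50389942). It was at 53.7 FPKM in NXD30001 cells and 9.04 FPKM in DMSO cells, a difference of 2.45 (implied error 0.95) and no call. Casp1, which encodes that protease and is no member, was at 0.479 and 6.74 FPKM, a difference of -2.39 that the authors' deposited table calls. The cytokine and its protease thus lay on opposite sides of 0. Il33 was at 0.174 and 1.202 FPKM and Il4, at a locus shared with Kif3a, at 0.186 and 1.33 FPKM. Il34 was at 4.07 and 2.30 FPKM.

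The chemokines of cultured cells were few. Ccl2 was at 4.71 FPKM with NXD30001 and 18.9 FPKM with DMSO, a difference of -1.80 (implied error 0.91) and no call. Cxcl10, at its shared locus, was at 1.36 and 7.77 FPKM, a difference of -1.90 (implied error 1.05.) Ccl25 was at 21.9 and 24.1 FPKM and Cxcl12 at 1.32 and 1.55 FPKM, both within their implied errors. Il8ra, the receptor Cxcr1 of neutrophil attractants, was listed at 0 with NXD30001 and at 2.97 FPKM with DMSO. Cxcr6 was at 1.01 and 2.84 FPKM and Cxcr7 at 3.18 and 1.86 FPKM. Il17ra was at 25.0 FPKM with NXD30001 and 18.3 FPKM with DMSO. The remaining measured members, Il10rb, Il12rb2 and Il18bp, differed by -0.50 to 0.42. Below the minimum, the authors' deposited table also calls Cxcl11, at 0.0352 FPKM with NXD30001 and listed at 0 with DMSO, at the locus it shares with Cxcl10.

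**Figure D4:**
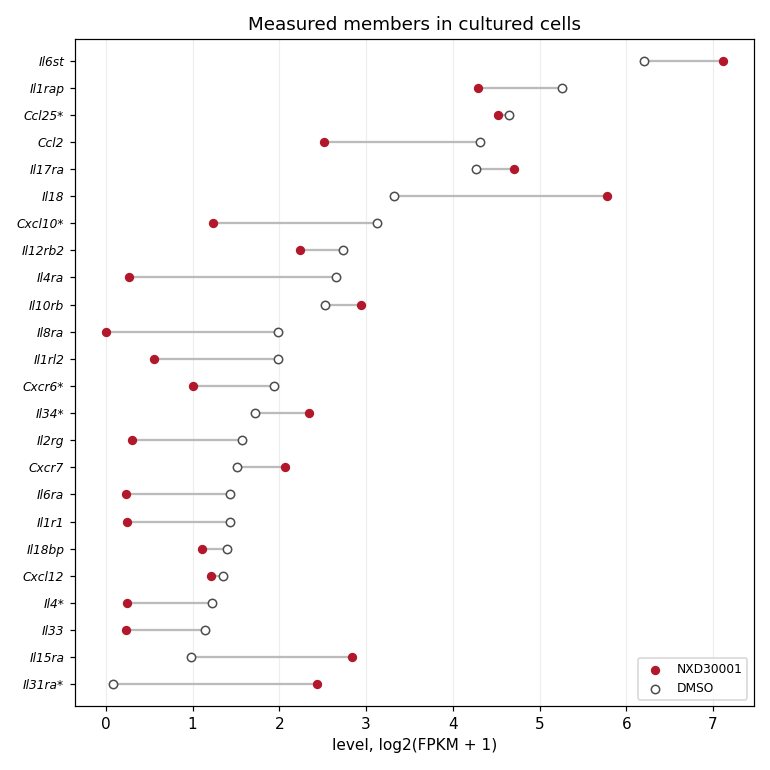
Levels of the 24 members measured in cultured cells, as log2(FPKM + 1); filled points are the NXD30001 library, open points the DMSO library, 1 library each, and an asterisk marks a locus shared with another row. Il18, at 53.7 FPKM with NXD30001 and 9.04 FPKM with DMSO, and Il4ra, at 0.206 and 5.28 FPKM, have the longest lines to either side.

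Of the 20 members measured in both tables, 9 differed in the same direction in culture and tumours (45%), against 51.0% of the 11559 genes measured in both. The share of the members was thus near that of all genes. Of the 20, 3 were higher in both and 6 lower in both, while 4 were higher in culture and lower in the tumours and 7 the reverse. Past 2-fold in either direction there were 9 in culture and 3 in the tumours. Of all measured culture genes, 12.6% were at least 2-fold higher and 24.8% lower. Those shares were 7.32% and 6.93% in the tumours, so more genes of any kind were past 2-fold in culture. Cxcl10 alone of the 20 was past 2-fold in both, at -1.90 in culture and -1.74 in the tumours. Ccl2 and Il4ra were lower in culture, by -1.80 and -2.38, with 0.04 and -0.29 in the tumours. Il15ra was above 0 in both, at 1.86 and 0.64. Il18 was at 2.45 in culture and -0.44 in the tumours. The exposures differ in dose, route and length, and the tumours hold host cells, so how much of this belongs to the cells themselves cannot be told apart, and the difference between the systems was not tested.

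**Figure D5:**
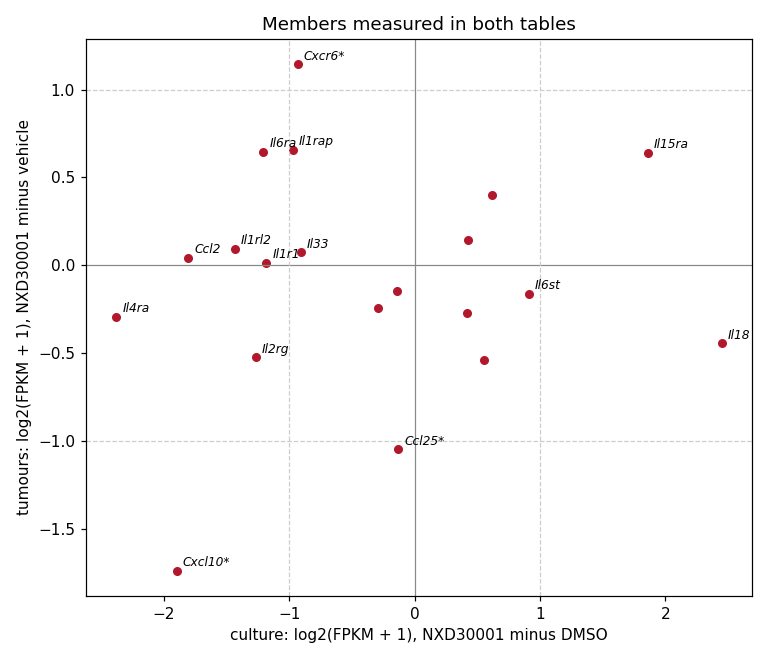
Differences of the 20 members measured in both tables, culture (NXD30001 minus DMSO) on the horizontal and tumours (NXD30001 minus vehicle) on the vertical axis, in log2(FPKM + 1); dashed lines mark 2-fold and an asterisk a shared locus. Cxcl10 sits alone in the lower left corner beyond 2-fold on both axes, and Il18 and Il15ra lie far to the right with tumour differences of -0.44 and 0.64.

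Signalling genes around the receptors were compared through lists. Of all measured culture genes, 24.8% were at least 2-fold lower and 12.6% at least 2-fold higher, and in the tumours 6.93% and 7.32%. The lists are short, and their counts are a description beside these shares. Of 17 JAK, STAT and SOCS genes 8 were measured in culture, 3 of them at least 2-fold lower, among them Stat6 and Ptpn6, and none 2-fold higher, and 15 in the tumours, all within 2-fold. Stat6, the factor activated by the IL-4 receptor, was at 5.03 FPKM with NXD30001 and 13.6 FPKM with DMSO in culture. In the tumours it was at 142 FPKM with NXD30001 and 84.8 FPKM with vehicle, a called difference of 0.74 with an implied error of 0.22, at a shared locus. Socs3, a feedback inhibitor of gp130 signalling, was at 87.0 and 73.9 FPKM in the NXD30001 and vehicle tumours.

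Of 23 listed genes between the IL-1 receptor and NF-kB, 16 were measured in culture, with 4 at least 2-fold higher and 1 lower, and 21 in the tumours, with 1 at least 2-fold higher and none lower. The 4 in culture were Nfkb1, which encodes an NF-kB subunit, and the inhibitors Nfkbia, Nfkbib and Tnfaip3, the last at 17.2 FPKM with NXD30001 and 5.73 FPKM with DMSO. The lower gene was Casp1. In the tumours the higher gene was Nfkbiz, which encodes a nuclear IkB protein, at 75.0 FPKM with NXD30001 and 9.98 FPKM with vehicle, a called difference of 2.79 with an implied error of 0.58.

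Cytokines outside the naming rule differed in culture. Of 14 listed, 5 were measured there and 4 were at least 2-fold higher, beside 12.6% of all measured culture genes. Kitl, the ligand of the receptor Kit on mast cells, was at 164 FPKM with NXD30001 and 49.5 FPKM with DMSO, a called difference of 1.71 with an implied error of 0.46. Cntf and Clcf1 signal through Il6st and Lifr. Cntf was at 14.9 FPKM in NXD30001 cells and 1.87 FPKM in DMSO cells, and Clcf1 at 6.33 FPKM in NXD30001 cells and 2.17 FPKM in DMSO cells. Lifr itself was at 28.1 and 8.92 FPKM. Tslp, which acts with Il7r and Crlf2, was at 8.07 FPKM with NXD30001 and listed at 0 with DMSO. The loci of Cntf and Tslp are shared. In the tumours 10 of the 14 were measured, with Osm 2-fold higher and Tnfsf11 2-fold lower.

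Chemokines with other names followed no single direction. Of 12 listed genes 6 were measured in the tumours. Pf4, a CXC chemokine of platelets, was at 21.5 FPKM with NXD30001 and 55.6 FPKM with vehicle, a difference of -1.33 (implied error 0.47.) Rarres2, the chemerin gene, was at 80.8 and 23.5 FPKM, a called difference of 1.74 at a shared locus, while its receptor Cmklr1 was at 21.1 and 22.3 FPKM. Of the 3 measured in culture only Cklf was past 2-fold. Cklf, which encodes a chemokine-like factor, was at 0.365 FPKM with NXD30001 and 71.9 FPKM with DMSO, and the authors' deposited table calls it. In the tumours it was at 18.0 and 20.3 FPKM.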

How the data were processed

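Total RNA came from cultured cells or tumours, and libraries followed an Illumina protocol (labels' protocols). Cufflinks 1.0.2 with Cuffdiff, TopHat 1.2.0, CASAVA and the build mm9 are listed in the submitters' processing notes. No source used here gives the strand setting. The authors deposited 2 tables with FPKM for 1 untreated and 1 treated library, and, per the file headers, a fold change as natural log, a test statistic and a q-value (both read here as a score) and a p-value. The deposited p-value was not used.

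Members and lists were chosen with earlier results of these data known. Values are given for measured members past 2-fold, called in the authors' table or at 10 FPKM or more, and the others by range or as partners. Differences used a pseudocount of 1 FPKM. No test was run with 1 library per group. Rows whose locus string recurs were marked as shared (28 members), since reads cannot be assigned with certainty. Start coordinates were raised by 1, because end minus start equalled the GENCODE length for 10580 of 19955 single loci and the length less 1 for 268. Counting was tested on simulated data with set changes and no noise, in genes with an untreated level of at least 10 FPKM. That checks the calculation and not the reliability of the counts. The 9 alternatives are in the closing section. Scripts used Python 3.11.15 and pandas 2.3.3. Values of some genes are not reported here.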

Additional observations from a re-analysis of the deposited data

Results flagged for a closer look

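The signs of 2 members differed between culture and tumours, with a difference past 2-fold in the one and past 1.5-fold the other way in the other. Cxcr6 had a difference of -0.93 in culture and 1.14 in the tumours, at a locus shared with Fyco1. Il6ra had -1.20 in culture and 0.65 in the tumours. With 1 library per group the difference between the systems was not tested.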

How the results depend on the processing

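With a minimum of 5 FPKM, 3 members in culture were 2-fold lower, 1 tumour member was 2-fold higher, and the authors' calls in culture were 1 higher and 1 lower. Without members listed at 0 in a library, 1 tumour member was 2-fold higher, and no called higher member was left (0), since Cxcl13 had been that call. Without shared loci 1 called higher member was left in culture. At 1.5-fold the counts were 5 higher in culture, and 7 higher and 20 lower in the tumours. The median in culture was -0.12 with no minimum level, -0.13 with a minimum of 5 FPKM, -0.45 centred, -0.54 rescaled to the upper quartile and -0.50 without members at 0. The number past 2-fold in opposite directions, 0 as reported, was 1 (Cxcr6) with a pseudocount of 0.1 or 0.5 FPKM and 3 at 1.5-fold. The other 59 values of these counts and medians stayed within 1.5 times or within 0.1. Of 208 recalculated differences of named members, 13 (of 11 members) moved by more than the implied error, or, for members listed at 0, by more than the median error of genes at that level, all with a smaller pseudocount. Ccl25 in culture, within 2-fold, changed sign, to 0.12 centred and 0.08 at the upper quartile, and no other named member did. With a pseudocount of 0.1 FPKM, Il31ra (4.82) was above Il18 (2.56) in culture, and Ccl3 (-5.16) below Ccl5 (-4.38) in the tumours. No paired analysis was possible because each group has 1 library. FPKM hides the fragment numbers, so the floor of a level listed at 0 is not known.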

Other observations

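Enzymes that cut chemokines, cytokines and their receptors were also compared. Of 8 listed, 4 were measured in culture and all 4 were below 0, 3 of them by at least 2-fold. Among all measured culture genes, 59.4% were below 0 and 24.8% at least 2-fold lower. Adam17, which sheds Il6ra and Cx3cl1, was at 24.2 FPKM with NXD30001 and 54.8 FPKM with DMSO, a difference of -1.14 (implied error 0.65), at a shared locus. Its level in the tumours was 47.1 FPKM with NXD30001 and 46.9 FPKM with vehicle. Of the 7 measured in the tumours, Mmp12, an elastase of macrophages, was at 7.92 FPKM with NXD30001 and 20.3 FPKM with vehicle, at a shared locus, and Mmp9 was at 45.8 and 90.2 FPKM, a difference of -0.96 that the authors' deposited table calls.

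Of the 74 members measured in neither table, 35 had the status OK and were listed at 0 in all 4 libraries, among them Il10, an anti-inflammatory cytokine, and Il31, the ligand of Il31ra.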
